A study of Mus musculus with 8 samples.

Results

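The 10 Toll-like receptor genes Tlr1 to Tlr9 and Tlr13 were followed in mouse skin, out of 24612 genes in the deposited table. They were chosen by their gene symbol, with earlier results of these data known, and all 10 were listed and passed the filter on low values. Toll-like receptors are membrane proteins that recognise microbial molecules and some nucleic acids of the host. Those of the cell surface (TLR1, TLR2, TLR4, TLR5 and TLR6) bind lipids and proteins of microbes, and those of endosomes (TLR3, TLR7, TLR8, TLR9 and TLR13) bind nucleic acids. Apart from TLR3, they signal through the adaptor MyD88 to NF-kappaB and interferon regulatory factors, and TLR3 and TLR4 use the adaptor TRIF. In skin they are found on macrophages, dendritic cells, mast cells, keratinocytes and fibroblasts.

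The study measured whole-skin RNA of male C57 BL/6 J mice after 21 days, with treatment from 6 weeks of age. The PBS group (2 libraries) received 0.1 mL of phosphate-buffered saline under the skin, and the bleomycin group (3 libraries) received 0.1 units of bleomycin by that route. Bleomycin is a DNA-damaging drug used to model skin fibrosis. The celastrol group (3 libraries) received daily injections of celastrol, a triterpenoid from Tripterygium wilfordii, into the peritoneum, at 1 or 2 mg/kg. Neither the dose behind each of these libraries nor any bleomycin given to these mice can be read from the labels, which name no mutant allele. The labels do not say that the libraries come from separate mice, so p-values measure only the spread between these samples, which may be technical.

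Values are the deposited size-factor-normalized counts, on a linear scale. Estimated depth lay between 14900000 reads (Celastrol 3) and 37100000 reads (Celastrol 5). Celastrol 2 stood apart on principal component 1 (32.7% of the variance), at a score of 237.5 where the other libraries lay between -57.3 and -3.63. It listed 3188 of 23185 tested genes at 0, against 187 to 1987 in the others. The keratinocyte markers, 7 of 7 listed, summed to between 224700 and 477830 in every library, so the labelled tissue carried its defining genes. Changes are log2 differences of value + 1 from limma with their standard error (SE), and a call is a Benjamini-Hochberg adjusted p under 0.05 over all genes tested.

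Tlr13 and Tlr1 were the members that passed the test against PBS. Their upstream sequences are shown with that of Tlr6, the neighbour and closest relative of Tlr1, which did not pass. Each is read 5′ to 3′ on the strand of the gene, from RefSeq on GRCm38.p6, and ends before the first annotated exon base. Capitals mark GAGGAA, the core letters bound by PU.1, a transcription factor of myeloid cells.
Tlr13, chrX:106143025-106143203, plus strand: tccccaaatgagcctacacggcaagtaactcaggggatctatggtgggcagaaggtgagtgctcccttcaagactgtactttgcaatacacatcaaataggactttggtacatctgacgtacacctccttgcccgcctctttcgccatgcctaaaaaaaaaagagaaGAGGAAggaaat
Tlr1, chr5:64933564-64933808, minus strand: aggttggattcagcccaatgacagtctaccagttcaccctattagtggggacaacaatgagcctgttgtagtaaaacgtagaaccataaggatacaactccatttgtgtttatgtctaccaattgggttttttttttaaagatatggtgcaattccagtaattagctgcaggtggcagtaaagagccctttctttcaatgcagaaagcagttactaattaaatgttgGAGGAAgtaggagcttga
Tlr6, chr5:64960098-64960298, minus strand: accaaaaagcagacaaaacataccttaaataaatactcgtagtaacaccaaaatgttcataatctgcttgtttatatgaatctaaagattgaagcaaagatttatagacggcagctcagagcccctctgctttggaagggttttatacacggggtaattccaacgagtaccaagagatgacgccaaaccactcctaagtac

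The set of RefSeq promoters used here covered 8 of the 10 members, in 10 windows that run from 250 bases before a start to 50 after it. This set held none for Tlr4 and Tlr7. GAGGAA was searched on both strands and stood in 4 of the 10 windows, those of Tlr1 (position -23 from the RefSeq start), Tlr8 (-77), Tlr13 (-83) and Tlr9 (-112 and 13). The same letters stood in 28.3% of all 32851 promoter windows. Tlr8 and Tlr9, which hold them too, did not pass the test against PBS, so the letters do not separate the genes that passed. The core of the interferon-stimulated response element, also searched on both strands, stood in 1 member window, an inner start of Tlr6 (positions -116 and -110 on the opposite strand), and in 3.44% of all windows. A loose form of the NF-kappaB site, searched in the same way, stood in windows of Tlr2, Tlr3, Tlr5 and Tlr6, and in 50.8% of all windows. These matches are descriptions of letters and name no bound site.

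All members are protein-coding, and their positions are those of the table, which match GENCODE release M21 on GRCm38. Tlr1 (ENSMUSG00000044827.10) lies at chr5:64924679-64933563 and Tlr6 (ENSMUSG00000051498.6) beside it at chr5:64952031-64960097. Tlr7 at chrX:167304929-167330558 and Tlr8 at chrX:167242696-167264329 are also neighbours, and Tlr13 (ENSMUSG00000033777.4) lies elsewhere on that chromosome, at chrX:106143204-106160493. Tlr2 lies at chr3:83836272-83841767, Tlr3 at chr8:45395665-45411080, Tlr4 at chr4:66827584-66930284, Tlr5 at chr1:182954788-182976044 and Tlr9 at chr9:106222598-106226883. Transcripts of Tlr1 and Tlr6 share 454 stretches of 50 bases, 13.6% of those of Tlr1 and 12.3% of those of Tlr6, so reads from these stretches leave both genes uncertain. No other pair of members shared such a stretch. Exons of Tlr3 overlap those of Gm45542 on the other strand, and the use of strand in counting is not given in the sources used here.

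Bleomycin libraries were set against PBS libraries to see which receptor genes differed. Tlr13, an endosomal receptor for bacterial ribosomal RNA, and Tlr1, the surface partner of TLR2 for triacylated lipopeptides, rose several-fold. Thus 2 members rose, 8 showed no passing change and 0 fell, where 0.453% of all 23185 genes tested rose and 0.677% were called in either direction. At an unadjusted p under 0.05 there were 5 members, beside 6.82% of all genes. The members' median log2 change was 0.84, beside -0.00 over all genes, and 9 members lay above 0, as did 49.9% of all genes. Ranges of both groups did not overlap in 7 members that were higher (12% of all genes) and in 1 that was lower (11.6% of all genes). Since the members were chosen with earlier results of these data known, these shares are a description and no test of the family.

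Among the endosomal receptors, Tlr13 stood at 166 and 159 in PBS 2 and PBS 3. In Bleomycin 2, 3 and 4 it stood at 869, 1031 and 1214. Every bleomycin library lay above both PBS libraries, which were close to each other. Tlr13 rose from 163 ± 5.18 (SD, n = 2) to 1038 ± 173 (SD, n = 3), by 2.65 ± 0.29 (SE) on the log2 scale or 6.30-fold (limma adjusted p = 0.00506). With 1 library left out in turn its change stayed between 2.54 and 2.78 and passed each time. The call ended without the mean-variance trend (adjusted p = 0.091) and without the 3 shallowest libraries (adjusted p = 0.0948, an alternative chosen after seeing the data).

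Tlr7, a receptor for single-stranded RNA, stood at 430 and 330 in PBS and at 608, 783 and 798 in Bleomycin 2, 3 and 4. Tlr8, its neighbour and relative, stood at 500 and 346 in PBS and at 616, 669 and 814. Both genes were higher in every bleomycin library than in either PBS library. Neither passed, with log2 changes of 0.94 ± 0.36 (limma adjusted p = 0.543) and 0.74 ± 0.29 (adjusted p = 0.593). Tlr3, the receptor for double-stranded RNA, stood at 577 and 516 in PBS and at 652, 667 and 708 in bleomycin libraries, a narrow spread without overlap (change 0.31 ± 0.21, adjusted p = 1). Tlr9, the receptor for unmethylated CpG DNA, stood at 88.3 and 11.0 in PBS and at 151, 90.2 and 77.2 in bleomycin libraries. Its groups overlapped, and PBS 3 held about 10 reads (change 1.65 ± 1.68, adjusted p = 1). The change was 0.20 without PBS 3 and 3.09 without PBS 2.

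Among the surface receptors, Tlr1 stood at 57.4 and 43.1 in PBS 2 and PBS 3. In Bleomycin 2, 3 and 4 it stood at 220, 267 and 261. The lowest bleomycin library lay far above the highest PBS library. Tlr1 rose from 50.2 ± 10.1 (SD, n = 2) to 249 ± 25.6 (SD, n = 3), by 2.30 ± 0.39 (SE) or 4.92-fold (limma adjusted p = 0.0307). Its size held with 1 library left out (2.10 to 2.50), but its call was lost without PBS 2 (adjusted p = 0.0868), PBS 3 (0.228), Bleomycin 3 (0.109), Bleomycin 4 (0.193) or Celastrol 5 (0.0549). It was also lost in a fit of only these 2 groups (0.0595), without the trend (0.091) and without the 3 shallowest libraries (0.136).

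**Figure D1:**
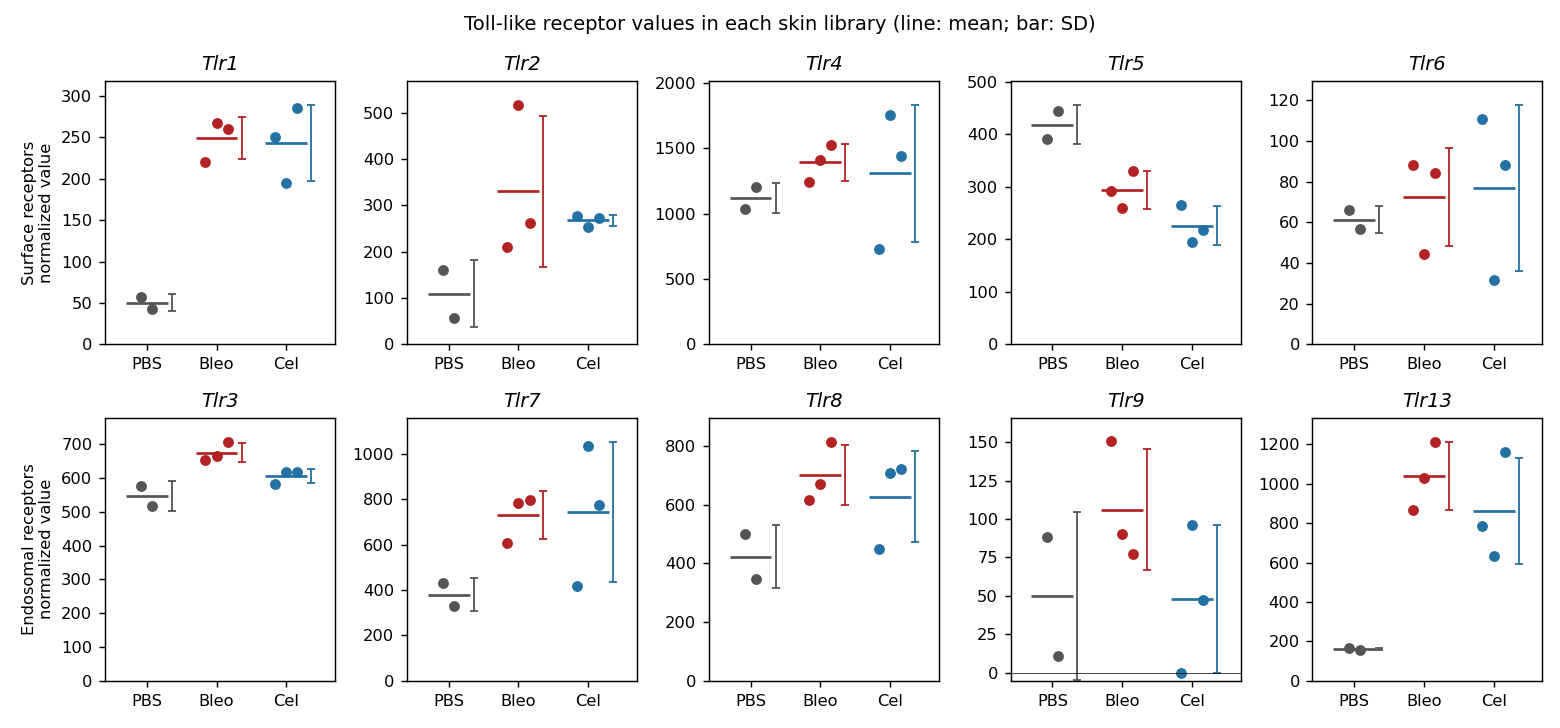
Deposited normalized value (y axis, linear) of each Toll-like receptor gene in the PBS, bleomycin (Bleo) and celastrol (Cel) libraries. Each point is a library, the line is the group mean and the bar its SD. Tlr13 and Tlr1 sat at 166 or less and at 57.4 or less in PBS, and above these levels in all 6 other libraries, while Tlr5 was lower in all 6.

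Tlr2, which pairs with TLR1 or TLR6 to bind bacterial lipopeptides, stood at 160 and 57.4 in PBS and at 211, 516 and 262 in bleomycin libraries. Bleomycin 3 was the high library, and the ranges did not overlap (change 1.66 ± 0.51, limma adjusted p = 0.283). The change was 0.93 without PBS 3 and 2.39 without PBS 2. Tlr6, the other partner of TLR2, stood at 66.0 and 56.7 in PBS and at 88.3, 44.5 and 84.0, so its groups overlapped (change 0.18 ± 0.70, adjusted p = 1). Tlr4, the lipopolysaccharide receptor, stood at 1039 and 1202 in PBS and at 1242, 1410 and 1523, without overlap and with a change of 0.31 ± 0.32 (adjusted p = 1). Tlr5, the flagellin receptor, was the member that was lower in every bleomycin library, at 292, 259 and 331 beside 392 and 445 in PBS (change -0.51 ± 0.30, adjusted p = 0.988).

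The ratio of Tlr1 to Tlr6, both per kilobase of exon, was looked at after the values were seen. It was 0.968 and 0.847 in PBS 2 and PBS 3, where the partners of TLR2 had similar levels. In bleomycin libraries it was 2.78, 6.69 and 3.46, and in celastrol libraries 2.51, 6.84 and 3.61. The highest ratios, in Bleomycin 3 and Celastrol 3, rested on about 34 and 19 reads of Tlr6. Reads from the stretches that both genes share add to the uncertainty of their size. The log2 ratio was higher by 2.14 in bleomycin than in PBS libraries (two-sided exact permutation p = 0.2, adjusted p = 0.4 over 6 such tests), and 0.2 is the smallest p that 3 against 2 libraries allow. The ratio of Tlr7 to Tlr8 lay between 0.756 and 1.03 in PBS and bleomycin libraries (exact permutation p = 0.2, adjusted p = 0.4). In Celastrol 2, 3 and 5 it was 0.821, 1.28 and 0.943 (exact permutation p = 0.4 against PBS, adjusted p = 0.6).

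Celastrol libraries were set against the same PBS libraries, which both comparisons therefore share. Tlr13 and Tlr1 passed here as well. Again 2 members rose, 8 showed no passing change and 0 fell, where 0.824% of all genes tested rose and 1.37% were called. At an unadjusted p under 0.05 there were 5 members, beside 12% of all genes. The median was 0.35, beside -0.07 over all genes, and 8 members lay above 0 (45.6% of all genes). In 4 members, Tlr1, Tlr2, Tlr3 and Tlr13, the celastrol range was higher without overlap (13.2% of all genes), and in Tlr5 it was lower (13.7%).

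Tlr13 stood at 788, 636 and 1161 in Celastrol 2, 3 and 5, above both PBS libraries. It rose to 862 ± 270 (SD, n = 3), by 2.35 ± 0.29 (SE) or 5.11-fold (limma adjusted p = 0.00541). Without PBS 3 the change was 2.32 (adjusted p = 0.0517), and without the trend and without the 3 shallowest libraries the adjusted p was 0.0909 and 0.0751. Tlr1 stood at 250, 194 and 286 and rose by 2.25 ± 0.39 or 4.76-fold (adjusted p = 0.0223). Its call was lost without PBS 2 (0.0788), PBS 3 (0.171), Bleomycin 4 (0.0581), Celastrol 2 (0.0518) or Celastrol 5 (0.0903), in a fit of only the 2 groups (0.112), without the trend (0.064) and without the 3 shallowest libraries (0.122).

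Tlr5 stood at 266, 194 and 217 in celastrol libraries, all below PBS, with a change of -0.90 ± 0.30 that did not pass (limma adjusted p = 0.244). Tlr2 lay close together at 276, 253 and 273, above both PBS libraries (change 1.47 ± 0.51, adjusted p = 0.255, with 0.74 without PBS 3 and 2.20 without PBS 2). Tlr7 stood at 419, 1036 and 776 and Tlr8 at 448, 709 and 722. Celastrol 2 was the low library in both and overlapped PBS (changes 0.88 ± 0.36 and 0.56 ± 0.29, adjusted p = 0.347 and 0.502). Tlr4 was also lowest in Celastrol 2, at 730 beside 1755 and 1439 (change 0.13 ± 0.32, adjusted p = 0.914). Tlr3 stood at 583, 619 and 619 (change 0.15 ± 0.21, adjusted p = 0.834).

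Tlr6 spread widely among celastrol libraries, at 111, 31.7 and 88.1, where Celastrol 3 held about 19 reads (change 0.15 ± 0.70, limma adjusted p = 0.959). Tlr9 was listed at 0 in Celastrol 2, where 3 reads would be worth 4.92, and stood at 96.2 and 47.0 in Celastrol 3 and 5. Celastrol 2 lay below both PBS libraries, Celastrol 3 above both and Celastrol 5 between them (change -0.97 ± 1.68, adjusted p = 0.868), and the fitted change was 1.06 without Celastrol 2 and 0.47 without PBS 2. Bounds from a count of 0 cover counting error only.

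**Figure D2:**
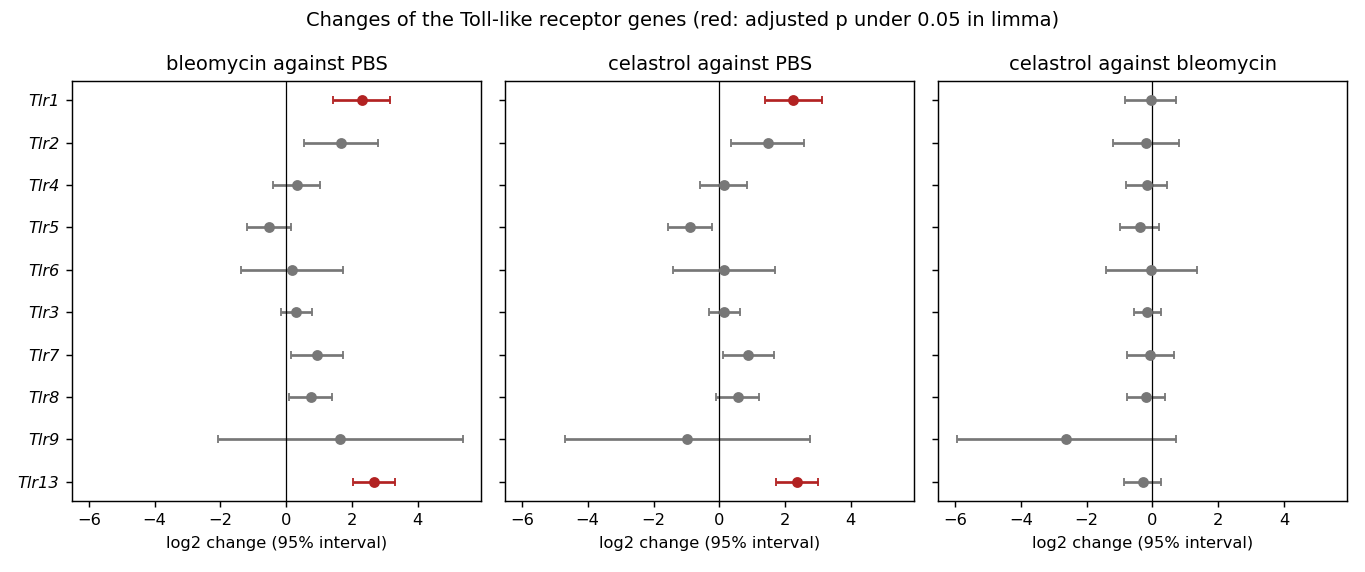
Log2 change of each member (x axis) with its 95% interval from limma, in the 3 comparisons, with surface receptors above and endosomal receptors below. Red points passed at an adjusted p under 0.05. Tlr1 and Tlr13 passed in both comparisons with PBS, at 2.25 to 2.65, and 0 members passed between celastrol and bleomycin.

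Celastrol and bleomycin libraries were then compared with each other. By limma 0 of 10 members passed, where 0% of all genes tested passed, and 0 members had an unadjusted p under 0.05 (3.87% of all genes, 898). Other fits of all members also called 0, and over all genes they called 0 to 2. The members' median was -0.18 beside -0.04 over all genes, and 0 members lay above 0 (46.3% of all genes). The change of Tlr13 was -0.30, with a 95% interval of -0.87 to 0.27, and that of Tlr1 was -0.05, with an interval of -0.82 to 0.72. Intervals of this width hold both no difference and differences in either direction, so the groups were not shown to be alike. Tlr3 was the member whose ranges did not overlap, lower in celastrol libraries (-0.15, interval -0.57 to 0.26), as in 4.59% of all genes, and 0 members were higher without overlap (4.13%).

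The remaining intervals were -1.19 to 0.80 for Tlr2, -0.81 to 0.46 for Tlr4, -0.98 to 0.21 for Tlr5, -0.76 to 0.64 for Tlr7 and -0.76 to 0.40 for Tlr8. They were wider for the low genes Tlr6 (-1.41 to 1.36) and Tlr9 (-5.94 to 0.70). The Tlr9 change of -2.62 depended on the library listed at 0, since it was -0.59 without Celastrol 2, and on the pseudocount, with -1.51 at 10 and -3.73 at 0.1. Directions of Tlr1, Tlr2, Tlr4, Tlr6, Tlr7 and Tlr8 turned when 1 library was left out.

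Levels of different receptors were compared per kilobase of merged exon. In PBS skin Tlr4 was the highest, at 202 ± 20.7 (SD, n = 2), and its range did not reach that of Tlr8 at 118 ± 30.3. Tlr8, Tlr3 (105 ± 8.27), Tlr7 (93.1 ± 17.4) and Tlr5 (87.3 ± 7.84) each overlapped the next in this order. Tlr13 (37.8 ± 1.20) and Tlr2 (36.1 ± 24.1) overlapped below them. Tlr6 (16.5 ± 1.77), Tlr1 (15.0 ± 3.02) and Tlr9 (14.3 ± 15.7) formed an overlapping low end.

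In bleomycin skin Tlr13 stood at 241 ± 40.1 (SD, n = 3) per kilobase and overlapped Tlr4 at 251 ± 25.5, the highest member. Tlr8 (195 ± 28.6) and Tlr7 (179 ± 25.9) followed in overlap. Tlr7 lay clear of Tlr3 (130 ± 5.53), which overlapped Tlr2 (109 ± 54.3). Tlr1, at 74.5 ± 7.64, overlapped Tlr2 above and Tlr5 (61.3 ± 7.51) below, and Tlr9 (30.5 ± 11.3) and Tlr6 (19.4 ± 6.48) were lowest. In celastrol skin the order was Tlr4, Tlr13, Tlr7, Tlr8, Tlr3, Tlr2, Tlr1, Tlr5, Tlr6 and Tlr9, with the first 4 overlapping in turn. Over the 3 groups 18 of 27 neighbouring pairs overlapped.

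**Figure D3:**
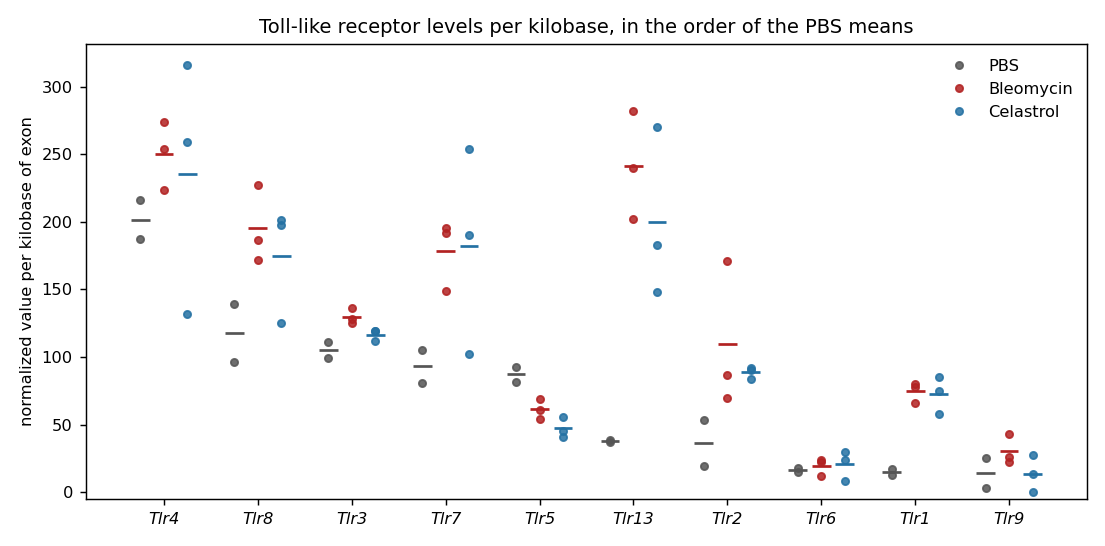
Normalized value per kilobase of merged exon (y axis) for each member, in the order of the PBS means, with a point per library and a line at the group mean. Tlr13 moved from the middle of the order in PBS (37.8) to beside Tlr4 in bleomycin (241) and celastrol libraries (200).

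The genes most like a member were taken by the root-mean-square difference of centred log2 values over the 8 libraries, a description with no test. Of all genes considered, Tlr13 was the nearest to Tlr1 (0.21), followed by Zbp1 (0.23), a nucleic acid sensor, and Trem2 (0.24), a lipid receptor of macrophages. Trem2 stood at 36.3 and 28.7 in PBS, and between 103 and 163 in the other libraries. For Tlr13 the nearest were the interferon-stimulated gene Ifi44 (0.20), Tlr1 (0.21) and Zbp1 (0.21). Ifi44 stood at 88.3 and 96.0 in PBS and between 375 and 768 elsewhere.

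For Tlr2 the nearest genes were the histone gene H3c4 (0.19), Ms4a4a (0.20), a membrane protein of macrophages, and the glycosyltransferase gene Galnt6 (0.22). For Tlr7 they were Clec4a3 (0.18), a lectin of myeloid cells, Pask (0.20) and Ccr2 (0.20), the chemokine receptor of monocytes. For Tlr6 they were Klf15 (0.14), Acss1 (0.18) and Mrpl28 (0.21), and for Tlr9 H3c14, Pear1 and Hs3st3a1 were more distant (0.49 to 0.59). Tlr3, Tlr4, Tlr5 and Tlr8 varied by less than 0.5 (SD, log2) and were left out. Among members the closest pairs were Tlr1 with Tlr13 (0.21) and Tlr7 with Tlr8 (0.22), whereas the partners Tlr1 and Tlr6 differed by 1.04.

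Of the other family genes, Tlr11, a receptor for the protozoan protein profilin, was listed in the deposited table and Tlr12 was not. Tlr11 stood at 77.2 and 83.9 in PBS, at 44.8, 11.8 and 43.4 in bleomycin libraries and at 0, 25.3 and 18.5 in Celastrol 2, 3 and 5. It was lower in all 6 treated libraries and did not pass (changes -1.46 ± 1.39 and -3.35 ± 1.39 against PBS, limma adjusted p = 1 and 0.363). The size of the celastrol change depends on Celastrol 2, listed at 0, and on the pseudocount.

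Among genes for proteins that fold, carry and assist the receptors, none passed. Of 16 accessory and trafficking genes 0 passed in any comparison, with 11 above 0 and a median of 0.25 for bleomycin against PBS, and 12 above 0 and a median of 0.335 for celastrol against PBS. Lgmn, the protease legumain, stood at 1152 and 901 in PBS and at 2062, 2212 and 2185 in bleomycin libraries (1.08 ± 0.25, limma adjusted p = 0.101). Ly86, the MD-1 partner of the receptor homologue CD180, stood at 1.34 ± 0.46 (adjusted p = 0.418). Lbp, which hands lipopolysaccharide to CD14, had the lowest values in celastrol libraries, at 64.0, 110 and 164 beside 529 and 328 in PBS (-1.98 ± 0.46, adjusted p = 0.0722) and 322, 215 and 234 in bleomycin libraries (-1.26 ± 0.41, adjusted p = 0.975). Cnpy3, a chaperone of the receptors, was second there by p (0.48 ± 0.29, adjusted p = 0.975). Chosen after their values were seen, Unc93b1, the carrier of endosomal receptors, and the TLR4 co-receptor genes Cd14 and Ly96 each had a bleomycin change of 0.34 with overlapping groups (adjusted p = 1 for each). Cd14 stood at 83.7, 113 and 79.0 in celastrol libraries and did not pass. These lay above 56.3 and 27.6 in PBS and 44.1, 64.0 and 44.8 in bleomycin libraries. Celastrol values of Unc93b1 and Ly96 overlapped those of PBS.

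Of 20 adaptor and kinase genes 0 passed in any comparison, and the medians were 0.09 and 0.12 against PBS. Pik3ap1, a phosphoinositide 3-kinase adaptor, stood at 1.06 ± 0.32 in bleomycin libraries (limma adjusted p = 0.287). Ikbke, a kinase that activates interferon regulatory factors, had values of 1134, 885 and 939 in bleomycin libraries and 611, 623 and 705 in celastrol libraries, without overlap (-0.60 ± 0.19, adjusted p = 0.975). Traf6, the ubiquitin ligase below MyD88, stood at 0.44 ± 0.18 in celastrol against PBS (adjusted p = 0.363). Myd88 itself, chosen after its values were seen, stood at 583 and 217 in PBS and at 542, 566 and 487 in bleomycin libraries (0.57 ± 0.40, adjusted p = 1).

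Of 10 transcription factor genes 1 rose in each comparison with PBS (0.453% and 0.824% of all genes), 0 fell and 9 did not pass, with medians of 0.11 and -0.06. It was Irf7, the regulator of type I interferon genes below TLR7 and TLR9, which is itself induced by interferon. Irf7 stood at 317 and 113 in PBS, at 1845, 1226 and 2003 in bleomycin libraries and at 1318, 864 and 2352 in celastrol libraries. It rose by 3.12 ± 0.48 (limma adjusted p = 0.0209) and 2.87 ± 0.48 (adjusted p = 0.0196). Rela, a subunit of NF-kappaB, and Nfkb1 had the smallest unadjusted p between celastrol and bleomycin, and Rela stood at -1.33 ± 0.53 (adjusted p = 0.975).

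Of 17 negative regulators 1 rose with bleomycin and 0 with celastrol (0.453% and 0.824% of all genes), and the medians were 0.22 and 0.01. Dusp1, which dephosphorylates MAP kinases, rose by 1.74 ± 0.30 in bleomycin against PBS (limma adjusted p = 0.0331) and stood at 1.11 ± 0.30 in celastrol against PBS (adjusted p = 0.139). Its difference between celastrol and bleomycin did not pass (-0.63 ± 0.27, adjusted p = 0.975).

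Of 20 cytokine and enzyme genes that these receptors induce, 18 were tested. With bleomycin 2 rose, 0 fell and 16 did not pass, and with celastrol 3 rose, 0 fell and 15 did not pass, where 0.453% and 0.824% of all genes rose. All 18 lay above 0 with bleomycin and 15 with celastrol (49.9% and 45.6% of all genes). Their medians were 2.04 and 1.57 beside -0.00 and -0.07 over all genes. Some of these genes passed the filter only through treated libraries, such as Ccl3 and Ccl4, at 0 in both PBS libraries. For such genes the filter favoured a positive sign, and the size of the change depends on the pseudocount. The monocyte chemoattractant gene Ccl2 stood at 25.7 and 17.7 in PBS, at 185, 108 and 157 in bleomycin libraries and at 149, 206 and 217 in celastrol libraries. It rose by 2.72 ± 0.51 (limma adjusted p = 0.0425) and 3.08 ± 0.51 (adjusted p = 0.0185). The acute-phase gene Saa3 rose by 3.90 ± 0.75 (adjusted p = 0.0493) and 4.21 ± 0.75 (adjusted p = 0.0254). With bleomycin the calls of Ccl2 and Saa3 lay close to the threshold. Cxcl10, an interferon-induced chemokine, rose by 3.22 ± 0.59 with celastrol (adjusted p = 0.0277) and stood at 2.92 ± 0.59 with bleomycin (adjusted p = 0.061). Many of the others were low, such as Il6 between 0 and 38.4 and Tnf between 0 and 49.1 over the 8 libraries.

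**Figure D4:**
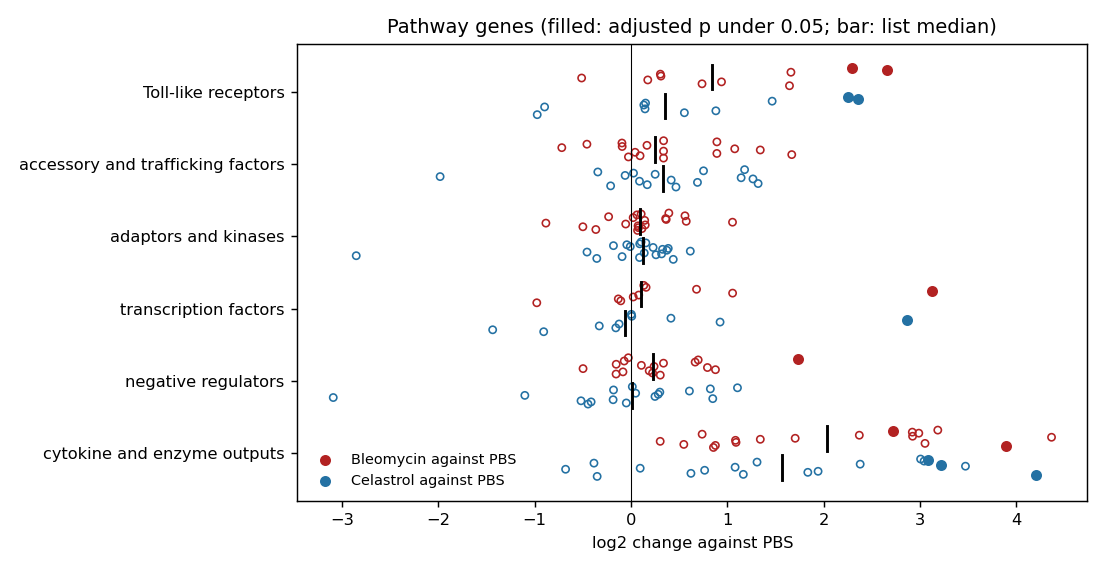
Log2 change against PBS (x axis) of each tested gene in 6 lists, with bleomycin in red and celastrol in blue. Filled points passed at an adjusted p under 0.05 and black bars are list medians. Adaptors and kinases had medians of 0.09 and 0.12 with 0 of 20 called, and the outputs had medians of 2.04 and 1.57. Some outputs passed the filter on low values only through treated libraries.

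In whole skin, fewer cells of a type and less RNA per cell cannot be told apart, so markers of cells that carry these receptors were set beside them. The 12 macrophage markers summed to 23984 and 21549 in PBS, between 23428 and 30016 in bleomycin and between 18950 and 28175 in celastrol libraries, so the sums overlapped. Mrc1, Lyz2 and Cd163 made up most of these sums, at 8621, 4422 and 3665 in PBS 2, so they say little about the other macrophage markers. Of the 12, 1 rose with bleomycin and 11 did not pass, where 0.453% of all genes rose. It was Fcgr1, an Fc receptor for immunoglobulin G, at 4.05 ± 0.73 (limma adjusted p = 0.0366). With celastrol Fcgr1 was called too (4.18 ± 0.73, adjusted p = 0.0241), where 0.824% of all genes rose. Its PBS values lay far apart, at 111 in PBS 2 and 9.93 in PBS 3, so the size of its change is uncertain. With bleomycin 8 of the 12 lay above 0 (49.9% of all genes), with a median of 0.37. Without overlap 5 were higher (12% of all genes) and 1 was lower (11.6% of all genes). Those higher were Fcgr1, Cd68 (1.15 ± 0.31, adjusted p = 0.182), Lyz2 (0.84 ± 0.30, adjusted p = 0.45), C1qb (0.72 ± 0.29, adjusted p = 0.63) and Adgre1, the F4/80 antigen (0.44 ± 0.27, adjusted p = 1). Cd163, a scavenger receptor, was the lower one (-0.96 ± 0.53, adjusted p = 0.946). Csf1r, the growth factor receptor that defines macrophages, stood at 2637 and 1463 in PBS and at 1742, 1486 and 1215 in bleomycin libraries (-0.42 ± 0.33, adjusted p = 1). Of the 12, 0 were at 0 in every library of a group.

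Of 6 monocyte markers 3 rose with bleomycin and 4 with celastrol, where 0.453% and 0.824% of all genes rose. Ms4a4c stood at 138 and 87.2 in PBS, at 1031, 1446 and 2008 in bleomycin libraries and at 1107, 1360 and 1428 in celastrol libraries (3.71 ± 0.31, limma adjusted p = 0.00186, and 3.55 ± 0.31, adjusted p = 0.00275). Ly6c2 rose by 3.28 ± 0.49 (adjusted p = 0.0206) and 3.14 ± 0.49 (adjusted p = 0.0156), and Chil3 by 6.92 ± 0.83 (adjusted p = 0.00854) and 7.26 ± 0.83 (adjusted p = 0.00483), and Plac8 by 2.06 ± 0.43 with celastrol (adjusted p = 0.0482), beside 2.10 ± 0.43 with bleomycin (adjusted p = 0.0649). Chil3 stood at 9.04 and 0 in PBS 2 and PBS 3, so the size of its change depends on the pseudocount. Ccr2 was higher without overlap in both comparisons with PBS and did not pass (1.06 ± 0.31 and 0.74 ± 0.31, adjusted p = 0.247 and 0.37). F13a1, the coagulation factor XIII subunit, went the other way, at 6637 and 5440 in PBS beside 3757, 4495 and 3649 in bleomycin libraries (-0.61 ± 0.28, adjusted p = 0.74, and -0.74 ± 0.28 with celastrol, adjusted p = 0.294). The monocyte sum lay between 7654 and 8990.5 in PBS, between 9486 and 12451 in bleomycin and between 7525 and 12681 in celastrol libraries. F13a1 and Ccr2 made up most of this sum, at 6637 and 1965 in PBS 2, so it says little about the other monocyte markers. The part of these cells in the rise of Tlr13 and Tlr1 was not tested.

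**Figure D5:**
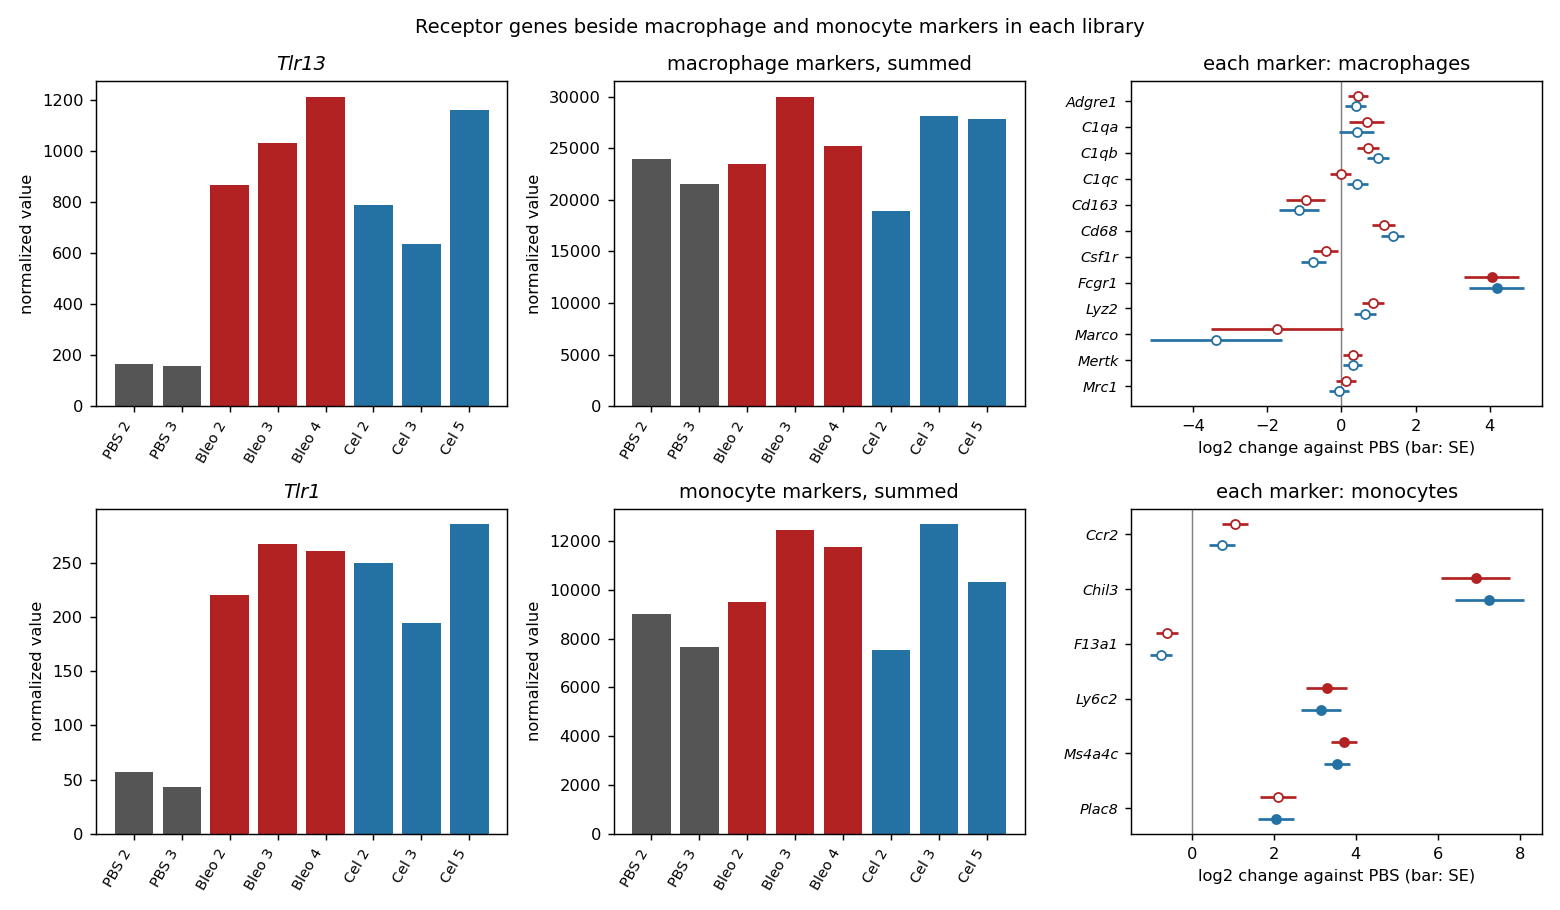
Normalized value (y axis) of Tlr13, Tlr1 and the summed macrophage and monocyte markers in each library, and, on the right, the log2 change against PBS (x axis, bar is the SE) of every marker in both lists, with PBS grey, bleomycin red, celastrol blue and filled points for an adjusted p under 0.05. Tlr13 and Tlr1 were higher in all 6 treated libraries than in PBS, while the markers of each list lay on both sides of 0, from -1.72 (Marco) to 4.05 (Fcgr1) and from -0.61 (F13a1) to 6.92 (Chil3) with bleomycin. Mrc1, Lyz2 and Cd163 made up most of the macrophage sum, and F13a1 and Ccr2 most of the monocyte sum.

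Neutrophil markers, 6 of 8 listed, summed to 1032 and 1494 in PBS, to between 1523 and 6174 in bleomycin and to between 2145 and 3089 in celastrol libraries. Of these 6 genes 1 rose with bleomycin and 2 with celastrol, where 0.453% and 0.824% of all genes rose. B cell markers, 4 of 6 listed, were lower, at 784 and 771 in PBS and between 256 and 469 in the other 6 libraries, with 0 of 3 tested called. Plasmacytoid dendritic cell markers overlapped between groups, with sums of 7107 to 10115 over all libraries, and 1 of 5 rose with each treatment (Bst2, which interferon also induces). Tcf4 and Ly6d made up most of these sums, at 5970 and 1799 in PBS 2, so the sums say little about the other markers. Siglech stood at 71.3 and 105 in PBS, at 11.1, 131 and 43.0 in bleomycin libraries and at 3.28, 88.1 and 46.3 in celastrol libraries. Conventional dendritic and Langerhans cell markers (1557 to 2893) and T and NK cell markers (724 to 1210) had 0 of 8 called in each comparison. Mast cell sums lay between 4428 and 5125 in PBS, between 5065 and 6803 in bleomycin and between 6721 and 6971 in celastrol libraries, with 0 of 6 called.

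Fibroblast markers summed to 513620 and 232210 in PBS and to between 17260 and 67746 in the other 6 libraries, and 4 of 6 fell with bleomycin and 5 with celastrol, where 0.224% and 0.543% of all genes fell. Skeletal muscle markers summed to between 73439 and 81319 in PBS, between 90390 and 133480 in bleomycin and between 166030 and 215350 in celastrol libraries. Of these 6 genes 1 rose with bleomycin and 3 with celastrol, where 0.453% and 0.824% of all genes rose. Endothelial sums (4045 to 5630) and adipocyte sums (5576 to 27095) overlapped between groups, and 1 endothelial gene fell with celastrol. Their part in the receptor values was not tested.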

How the data were processed

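The authors deposited a linear signal per gene and library, which the file headers describe as normalized by DESeq2 with poscounts size factors. Partek 10.0.22, STAR 2.7.3a, DESeq2 and the build mm10 are listed in the submitters' processing notes. Settings, counter and use of strand are not given in the sources used here. The value of a single read, found from steps among low values, gave the depth. Values below 1000 reads were whole within 0.03 reads in 58.9% to 67.6% of genes, so counts were not recovered and no count test was run. A gene was tested where 2 or more libraries reached a value of 10 (23185 of 24612). Log2 values with a pseudocount of 1 were fitted in limma 3.58.1 (R 4.3.3), all 8 libraries together, with its trend option, and two-sided p-values were adjusted over all genes by the Benjamini-Hochberg method. The procedure was tested on simulated data. The members and lists were chosen with earlier results of these data known. All members are named. Of each signalling list the genes that passed are named (at most 6), or the 2 with the smallest p where none passed. For members with an SD of at least 0.5, the 3 nearest genes are named, leaving out predicted genes and pseudogenes. Alternatives changed the pseudocount, filter, scaling, block, weights, trend and libraries. Gene by gene they were followed for the members only, so calls of signalling and marker genes were not checked in them.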

Additional observations from a re-analysis of the deposited data

How the results depend on the processing

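Of 18 alternatives, 10 gave 2 called members in bleomycin against PBS, and 10 did so in celastrol against PBS. For bleomycin against PBS, 1 member was called in a fit of only the 2 groups and in the fit with a replicate block, 0 without the trend, and 1 to 2 with 1 library left out. For celastrol against PBS these were 1, 1, 0 and 0 to 2. Without the 3 shallowest libraries (Bleomycin 3, Celastrol 2 and Celastrol 3, chosen after seeing the data) 0 were called in both.

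Over all genes, where 157, 317 and 0 were called for bleomycin against PBS, celastrol against PBS and celastrol against bleomycin, the counts were 46, 159 and 0 in fits of 2 groups and 7, 19 and 2 without the trend. They were 0, 4 and 0 without the 3 shallowest libraries, and 16 to 229, 38 to 418 and 0 to 1 with 1 library left out. Library weights gave 711, 398 and 0. The replicate block gave 17, 41 and 0. Same-numbered libraries did not all deviate together (correlations of -0.00 to 0.20, beside -0.20 to 0.12 for other pairs), so the numbers were not taken to pair them. The deviations of 2 PBS libraries from their mean mirror each other, so these correlations cannot settle whether the libraries are paired.

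Tlr13 was called in 17 of 19 alternatives with bleomycin and 16 with celastrol, and Tlr1 in 10 with each. Under the block Tlr1 stood at 2.26 (adjusted p = 0.227) and 2.13 (adjusted p = 0.166). Both kept their direction against PBS in all 19. Changes that turned sign, none of them called, ranged with 1 library left out from -0.17 to 0.10 (Tlr1), -0.46 to 0.18 (Tlr2), -0.44 to 0.20 (Tlr4), -0.38 to 0.51 (Tlr6), -0.35 to 0.31 (Tlr7) and -0.30 to 0.0414 (Tlr8) between celastrol and bleomycin. Against PBS with celastrol they ranged from -0.12 to 0.51 (Tlr4), -0.20 to 0.68 (Tlr6) and -2.42 to 1.06 (Tlr9), and Tlr6 stood at -0.0397 with the block. Without the 3 shallowest libraries celastrol against bleomycin gave 0.25 (Tlr1), 0.18 (Tlr13), 0.21 (Tlr2), 0.0653 (Tlr4), 0.0313 (Tlr6), 0.15 (Tlr7) and 0.0278 (Tlr8), and celastrol against PBS gave 0.55 (Tlr9). The cause was not tested.

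Scaling to equal sums moved the median of all genes from -0.04 to -0.16 for celastrol against bleomycin and from -0.07 to -0.17 against PBS, and no member turned sign under it or under TMM scaling. With lengths of the longest transcript, 20 neighbouring pairs overlapped where merged exons gave 18. A lone library left in a group was assumed to vary like the other groups. Depth limits Tlr6, Tlr9 and Tlr11, which fell to 19, 0 and 0 reads in their lowest library.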
